A study of Mus musculus with 6 samples.

Results

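The genes described here make cholesterol or are known targets and controllers of the transcription factor SREBP2. They are 28 genes, taken by name from the single table of 38087 mouse genes. The gene symbol matched for 27 of them, and Msmo1 was found by its Ensembl identifier under its older symbol, Sc4mol. All 28 passed the low-value filter, which kept 18899 genes listed above 0 in at least 3 libraries. The cells were macrophages differentiated from marrow of male mice of the strain C57BL/6J, whose age is given as 8 to 10 weeks in the protocol and as a wider range in another label. Differentiation took 7 days in the growth factor M-CSF at 10 ng/ml, which was then withdrawn for 24 h after re-plating. In the treated group the cells received 10 nM resolvin D1 (RvD1), a lipid mediator made from docosahexaenoic acid that signals through the receptor ALX/FPR2, for 6 h. The control group was untreated, with no vehicle described in the labels. RNA was sequenced from 3 libraries per group, and nothing in the labels ties each library to its own animal or dish. The p-values therefore measure only the spread between these libraries, which may be technical.

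Cells build cholesterol from acetyl-CoA through mevalonate, the isoprenoids, squalene and lanosterol. SREBP2, encoded by Srebf2, is held in the endoplasmic reticulum by the escort protein Scap and the retention proteins Insig1 and Insig2 while sterol is plentiful, and when sterol runs low Scap carries it to the Golgi, where it is cut into an active factor that turns on the enzymes of the pathway, Insig1 and its own gene. In macrophages, which take up cholesterol with the cells and lipoproteins they engulf, this system is balanced against storage and export of sterol.

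The deposited values were read as log2 normalized reads, so that 1 unit is a doubling. Depth, estimated from the value that stands for 1 read, was 9050000 to 14300000 reads in untreated and 11200000 to 16300000 in RvD1 libraries. The members' values corresponded to between 35 reads (Fads2) and 3557 reads (Acly) per library, and 7 members were under 100 reads in at least 1 library. All 9 macrophage markers were present, with a summed log2 level of 16.62 to 17.00 in untreated and 16.68 to 17.04 in RvD1 libraries. The summed level of 6 stromal markers was high too, at 15.24 to 15.46 in untreated and 15.09 to 15.73 in RvD1 libraries. These markers were uneven: Col1a1 read 13.83 to 14.39, while Dcn read 4.53 to 5.72 and Lum 0.0 to 1.93. The 8 neutrophil markers summed to 12.03, 12.69 and 13.83 in untreated replicates 1, 2 and 3, and to 12.40, 12.89 and 13.79 in the RvD1 replicates of those numbers. Of 5 T cell markers, 2 (Cd3e and Cd3g) were at 0 in every library, while Cd247 read 5.39 to 5.98. That list summed to 5.58 to 6.08. The dendritic cell, mast cell and osteoclast lists summed to at most 8.84 in any library.

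No gene of cholesterol synthesis or SREBP2 control passed the test between RvD1 and untreated libraries, while most fold changes were small and negative. Of the 28 members, 25 had a negative log2 fold change (89.3%, against 49.2% of all tested genes), with a median of -0.21, where the median of all tested genes was 0.0044. In limma with Benjamini-Hochberg adjustment over all tested genes, 0 of 28 passed in either direction, against 1.12% of all tested genes (0.556% lower and 0.561% higher). The smallest adjusted p among the members was 0.131, for Insig1. At an unadjusted p under 0.05, 7 members were lower (25.0%, against 9.65% of all tested genes) and 0 were higher (10.3% of all tested genes). A fit with the replicate number as a block, which the labels do not state as a pairing, called 4 members lower (4.48% of all tested genes), and the block together with a length and GC correction called 7 lower (2.15%). The 3 RvD1 libraries lay entirely below the 3 untreated ones in 9 members (32.1%, against 12.8% of all tested genes), and the reverse was seen in 0 (12.6% of all tested genes). These 9 were Insig1, Srebf2, Scap, Mvk, Sqle, Lss, Fdft1, Dhcr7 and Acly. In these bulk samples, fewer cells of a type and less RNA per cell cannot be told apart. The median rested in part on untreated replicate 3: without it, the median was -0.10, 21 of 28 were negative (49.2% of all tested genes) and 4 were lower at an unadjusted p under 0.05 (7.46% of all tested genes), namely Insig1, Srebf2, Scap and Mvk. Of these 4, only Insig1 was also under that p after the length and GC correction in the fit of all 6 libraries.

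**Figure D1:**
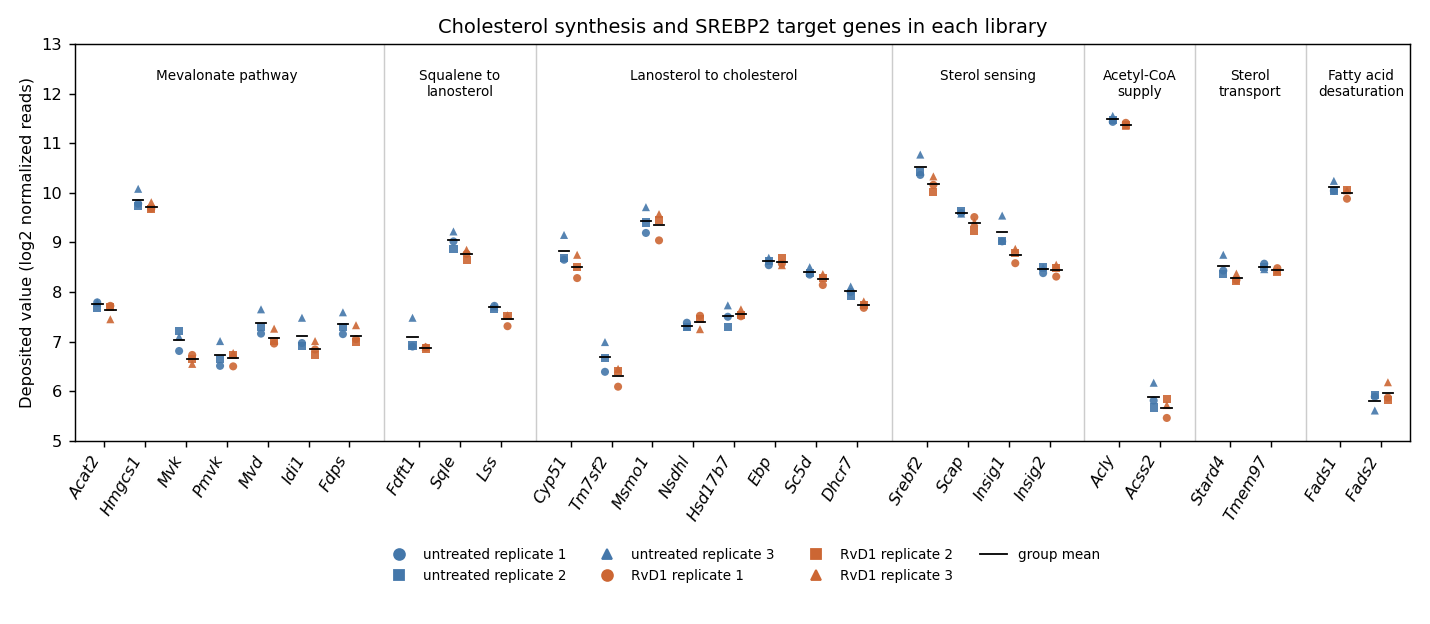
Deposited values (log2 normalized reads, vertical axis) of the 28 genes, grouped by role in the pathway, with 1 point per library (blue untreated, orange RvD1, shape by replicate) and a black line at each group mean. The RvD1 points lie wholly below the untreated ones for 9 genes, and the blue triangle of untreated replicate 3 is the highest of the 6 points for 21 genes.

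The 4 sterol-sensing genes had a median of -0.28, the lowest of the 7 roles, and differed among themselves. Insig1 (chromosome 5, 28071363 to 28078662, plus strand, mm10), the SREBP2-induced retention protein, had values of 9.02, 9.03 and 9.54 in untreated replicates 1, 2 and 3 and at 8.58, 8.78 and 8.87 in RvD1 replicates 1, 2 and 3. Every RvD1 library lay under every untreated one, and untreated replicate 3 stood above the other two. Its log2 fold change was -0.45 (95% interval -0.78 to -0.13, limma adjusted p = 0.131), a ratio of 0.730, and -0.28 without untreated replicate 3. Insig2 (chromosome 1, 121304353 to 121332589, minus strand), the form whose gene is not known as an SREBP2 target, read 8.38, 8.51 and 8.49 in untreated and 8.31, 8.49 and 8.55 in RvD1 libraries. The groups overlapped, with a log2 fold change of -0.01 (-0.21 to 0.18), an interval that leaves room for a small difference in either direction. The gap of Insig1 over Insig2 within a library came to 0.64, 0.52 and 1.05 in untreated and 0.27, 0.30 and 0.32 in RvD1 libraries. It was smaller by 0.44 in the mean after RvD1, without overlap. An exact permutation test (two-sided) gave p = 0.1, the smallest value that 3 against 3 libraries allow. Groups of this size that do not overlap always give that value, so it adds nothing to the separation itself.

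Srebf2 itself (chromosome 15, 82147181 to 82205379, plus strand), which encodes SREBP2, read 10.36, 10.42 and 10.77 in untreated and 10.16, 10.02 and 10.33 in RvD1 libraries. The groups did not overlap, though RvD1 replicate 3 came close to untreated replicate 1. The log2 fold change was -0.35 (-0.61 to -0.08, limma adjusted p = 0.152). Scap (chromosome 9, 110333288 to 110384950, plus strand), the escort, was nearly flat across the untreated libraries, at 9.59, 9.64 and 9.58, and read 9.51, 9.24 and 9.41 after RvD1. Its log2 fold change was -0.22 (-0.39 to -0.04, limma adjusted p = 0.165), with RvD1 replicate 2 the lowest. It shares 985 exon bases with 5830462I19Rik on the opposite strand, a gene with values of 6.40 to 6.87 and a log2 fold change of -0.06. Unlike Insig1, Scap was not highest in untreated replicate 3.

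In the mevalonate pathway all 7 members had negative log2 fold changes (49.2% of all tested genes), with a median of -0.22. In limma 0 passed (1.12% of all tested genes), and 1 was lower at an unadjusted p under 0.05 (9.65% of all tested genes). Mvk (chromosome 5, 114444269 to 114460591, plus strand), which phosphorylates mevalonate, read 6.81, 7.22 and 7.10 in untreated and 6.73, 6.65 and 6.55 in RvD1 libraries. The groups were apart, with untreated replicate 1 closest to the RvD1 libraries. Its log2 fold change was -0.40 (-0.70 to -0.10, limma adjusted p = 0.149). Hmgcs1 (chromosome 13, 119690379 to 119708260, plus strand), which makes HMG-CoA, stood at 9.78, 9.73 and 10.08 in untreated and 9.68, 9.67 and 9.81 in RvD1 libraries. The groups overlapped, because RvD1 replicate 3 exceeded untreated replicates 1 and 2, and the log2 fold change of -0.14 (-0.36 to 0.08) became -0.03 without untreated replicate 3. Idi1, the isomerase that makes the reactive isoprenoid unit, read 6.97, 6.91 and 7.48 in untreated and 6.84, 6.73 and 7.01 in RvD1 libraries, a difference of -0.26 on the log2 scale (-0.63 to 0.11) that went to -0.08 without untreated replicate 3. The other members were Mvd, the decarboxylase (-0.29), Fdps, which makes farnesyl diphosphate (-0.22), the cytosolic thiolase Acat2 (-0.13) and the second kinase, Pmvk (-0.06), all with intervals that included 0. Acat2 and Idi1 have close paralogs, Acat3 and Idi2, and the sources used here do not give how reads shared between copies were counted.

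The enzymes from squalene to lanosterol were below 0 in 3 of 3 (49.2% of all tested genes), with a median of -0.24. Sqle (chromosome 15, 59315077 to 59331192, plus strand), squalene epoxidase and a control point of the pathway, read 9.02, 8.87 and 9.22 in untreated and 8.77, 8.65 and 8.85 in RvD1 libraries. The groups did not overlap, though untreated replicate 2 and RvD1 replicate 3 nearly met. The log2 fold change was -0.28 (-0.51 to -0.05, limma adjusted p = 0.172). Lss, which closes the ring system to give lanosterol, was tight in untreated libraries at 7.72, 7.65 and 7.71, and read 7.31, 7.51 and 7.53 after RvD1, with replicate 1 the lowest (log2 fold change -0.24, -0.45 to -0.03, limma adjusted p = 0.198). Lss overlaps the barely detected 4930483K19Rik (1.18 to 2.45) by 381 exon bases on the opposite strand. Fdft1, squalene synthase, read 6.90, 6.92 and 7.48 in untreated and 6.88, 6.86 and 6.90 in RvD1 libraries, so its groups were separated only beyond the second decimal. Its log2 fold change of -0.22 (-0.58 to 0.14) was -0.03 without untreated replicate 3. Fdft1 shares 774 exon bases with Ctsb on the opposite strand. Ctsb, a lysosomal protease, had a level of 17.17, 17.29 and 17.43 in untreated and 17.15, 17.31 and 17.43 in RvD1 libraries, and with the kit named in the labels (TruSeq RNA), which does not mark strand, reads from the shared bases cannot be told apart.

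Of the steps from lanosterol to cholesterol, 6 of 8 members were negative (49.2% of all tested genes), with a median of -0.12. Dhcr7 (chromosome 7, 143823145 to 143848410, plus strand), the reductase of the final step of one branch, read 8.00, 7.91 and 8.11 in untreated and 7.68, 7.73 and 7.81 in RvD1 libraries. Its groups were apart and both were tight, with SDs of 0.10 and 0.06, and the log2 fold change came to -0.27 (-0.46 to -0.07, limma adjusted p = 0.139). The lanosterol demethylase Cyp51 (-0.32, -0.67 to 0.04) and the sterol reductase Tm7sf2 (-0.37, -0.77 to 0.04) had larger fold changes with wider spread. Cyp51 read 8.65, 8.69 and 9.15 in untreated and 8.28, 8.50 and 8.75 in RvD1 libraries. Tm7sf2 shares 532 exon bases on the same strand with Vps51, which had a log2 fold change of -0.29 itself, and Cyp51 shares 166 on the opposite strand with Akap9, at 0.50. The sterol desaturase Sc5d (-0.15), the methyl oxidase Msmo1 (-0.08) and the isomerase Ebp (-0.02) lay nearer 0. In sterol demethylation, the ketosteroid reductase Hsd17b7 (0.06) and the dehydrogenase Nsdhl (0.08) were on the positive side, with intervals of -0.21 to 0.33 and -0.15 to 0.31.

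Around the pathway, Acly, which cuts citrate to give cytosolic acetyl-CoA, read 11.43, 11.46 and 11.55 in untreated and 11.41, 11.36 and 11.35 in RvD1 libraries. The groups were apart, but the log2 fold change was -0.11 (-0.23 to 0.02). Acss2, which makes acetyl-CoA from acetate, had -0.21 (-0.62 to 0.21) at a low level, and it shares exon bases with Gss (395) and Ggt7 (197) on the opposite strand. The sterol carrier Stard4 had -0.24 (-0.48 to 0.01) and the sterol-regulated membrane protein Tmem97 had -0.07 (-0.23 to 0.08). Of the fatty acid desaturases, Fads1 had -0.11 (-0.29 to 0.07) and Fads2 had 0.15 (-0.22 to 0.52), the highest value of the 28. Fads2 read 5.89, 5.92 and 5.61 in untreated and 5.87, 5.82 and 6.18 in RvD1 libraries. Its groups overlapped, and the library labelled untreated replicate 3, highest for most members, was the lowest for this one.

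**Figure D2:**
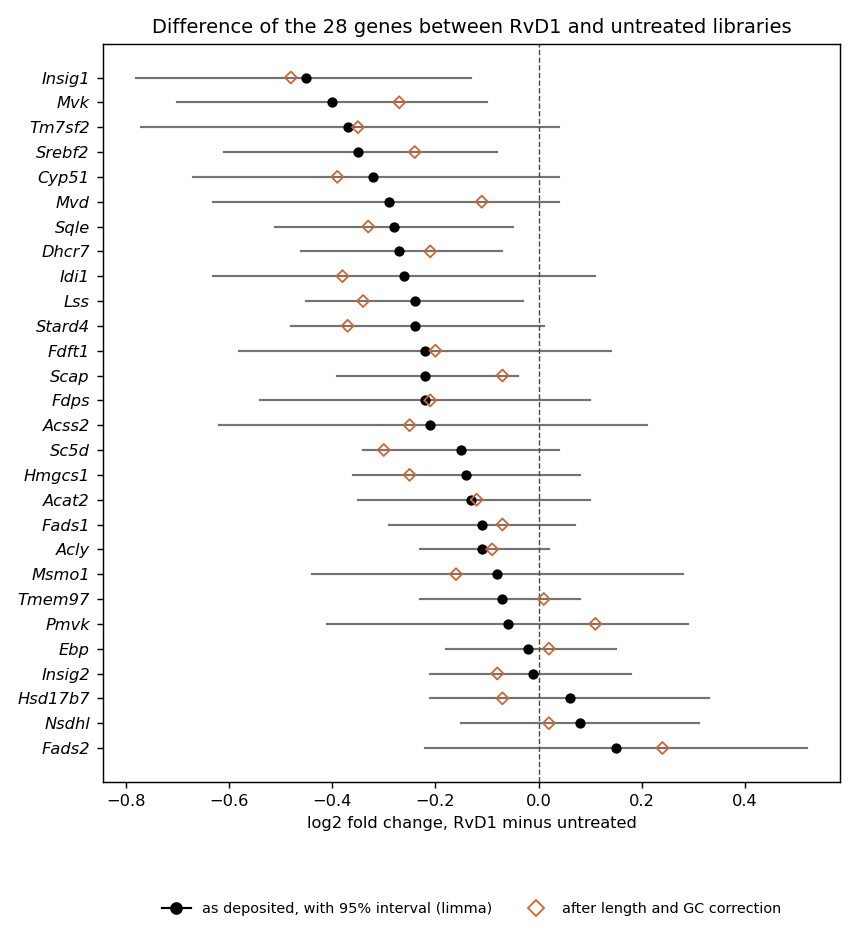
Log2 fold change of each of the 28 genes (horizontal axis, RvD1 minus untreated) as deposited, with the 95% interval from limma (black), and after correction for transcript length and GC content (orange diamonds). The intervals of 7 genes, from Insig1 at -0.45 to Scap at -0.22, exclude 0, and 25 black points and 23 diamonds lie below 0.

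The members shared a pattern across libraries. Taken as the deviation from its own mean over 6 libraries, the median member stood at -0.01, 0.02 and 0.27 in untreated replicates 1, 2 and 3 and at -0.15, -0.08 and -0.03 in RvD1 replicates 1, 2 and 3. Over the 13176 genes whose log2 values averaged 5 or more, the median was 0.00 in every library. Untreated replicate 3 thus had the median furthest from 0, with 25 of 28 members above their own mean. RvD1 replicate 1 was one-sided the other way, with 4 of 28 above it. It was the highest of the 6 libraries for 21 members, against 17.8% of all tested genes. RvD1 replicate 3 was the highest of its group for 19 members, against 32% of all tested genes. The summed neutrophil markers given above were also highest in replicate 3 of each group. So were the summed macrophage markers, at 17.00 in untreated and 17.04 in RvD1 replicate 3. The part of either in the members' levels was not tested. The members that were not highest in untreated replicate 3 were Lss, Mvk, Nsdhl, Insig2, Scap, Tmem97 and Fads2, and of these Lss, Mvk and Scap had intervals below 0.

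**Figure D3:**
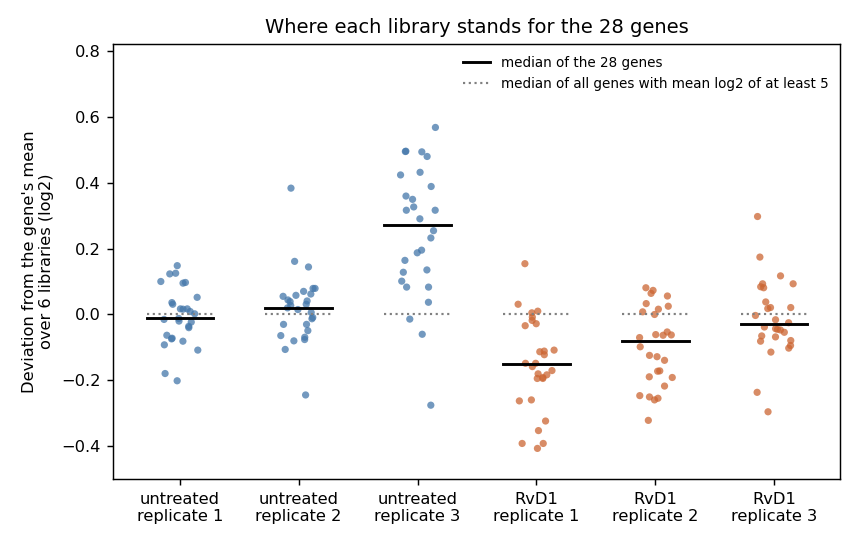
Deviation of each of the 28 genes from its own mean over the 6 libraries (log2, vertical axis), with 1 column of points per library, a black line at the median of the 28 and a dotted line at the median of all genes with a mean of at least 5. The median is 0.27 in untreated replicate 3, between -0.01 and 0.02 in the other untreated libraries, and between -0.15 and -0.03 in the RvD1 libraries.

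**Figure D4:**
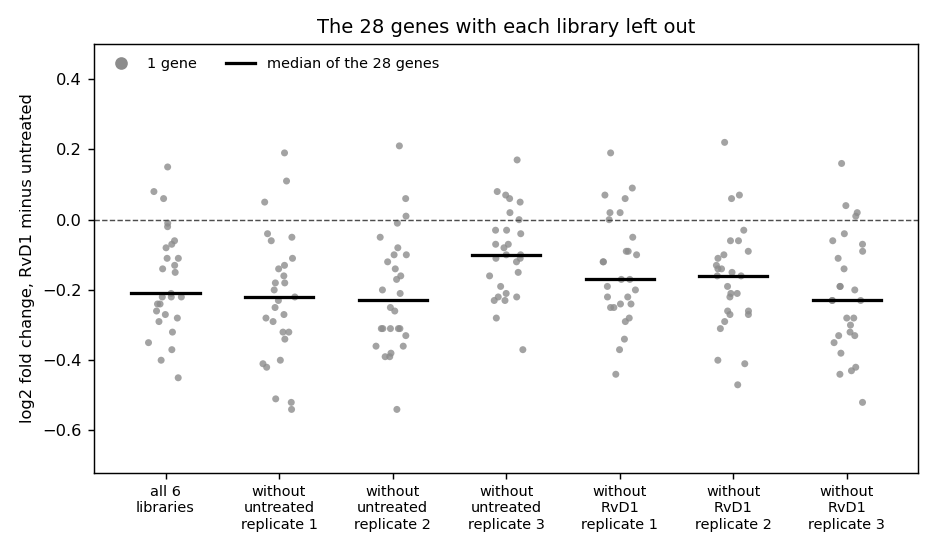
Log2 fold changes of the 28 genes (vertical axis, RvD1 minus untreated) with all 6 libraries and with each library left out, with a black line at the median. The median runs from -0.23 to -0.16 except without untreated replicate 3, where it is -0.10.

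Promoters of 23 members were found in RefSeq (GRCm38.p6, the assembly called mm10), as windows from 250 bases before to 50 after a start site, with several windows for some genes. They are shown for Hmgcs1, Insig1, Srebf2, Mvk and Insig2 because they include both Insig forms, the gene of SREBP2 itself and 2 enzymes of the mevalonate pathway. Both strands were searched for the sterol regulatory element to which SREBP2 binds, as TCACNCCAC and as a stricter, longer form that contains it, for CCAAT, the site of NF-Y, for GGGCGG, the site of Sp1, and for the E-box CACGTG. NF-Y and Sp1 are known partners of SREBP2. Capitals mark TCACNCCAC and CCAAT on either strand (CCAAT reads ATTGG on the other), and each sequence ends before the first annotated start of the gene.
Hmgcs1 (chr13:119690101-119690350, plus strand): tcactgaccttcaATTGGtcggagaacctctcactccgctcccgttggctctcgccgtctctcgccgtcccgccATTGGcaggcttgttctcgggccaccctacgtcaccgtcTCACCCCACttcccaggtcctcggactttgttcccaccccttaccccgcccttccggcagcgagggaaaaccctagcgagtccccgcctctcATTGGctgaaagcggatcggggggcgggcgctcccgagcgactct
Insig1 (chr5:28071162-28071362, plus strand): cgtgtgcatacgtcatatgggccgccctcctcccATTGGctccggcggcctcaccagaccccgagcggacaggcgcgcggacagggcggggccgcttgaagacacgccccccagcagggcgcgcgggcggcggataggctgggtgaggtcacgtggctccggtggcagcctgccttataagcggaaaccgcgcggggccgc
Srebf2 (chr15:82147019-82147180, plus strand): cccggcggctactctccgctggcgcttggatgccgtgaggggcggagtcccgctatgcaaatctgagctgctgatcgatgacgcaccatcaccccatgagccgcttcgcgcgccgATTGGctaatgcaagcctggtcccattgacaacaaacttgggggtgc
Mvk (chr5:114444019-114444268, plus strand): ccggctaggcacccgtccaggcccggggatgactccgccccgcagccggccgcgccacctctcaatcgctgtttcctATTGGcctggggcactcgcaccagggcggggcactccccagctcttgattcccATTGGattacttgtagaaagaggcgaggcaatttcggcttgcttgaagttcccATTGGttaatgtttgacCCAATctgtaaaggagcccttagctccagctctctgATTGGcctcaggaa
Insig2 (chr1:121332590-121332839, minus strand): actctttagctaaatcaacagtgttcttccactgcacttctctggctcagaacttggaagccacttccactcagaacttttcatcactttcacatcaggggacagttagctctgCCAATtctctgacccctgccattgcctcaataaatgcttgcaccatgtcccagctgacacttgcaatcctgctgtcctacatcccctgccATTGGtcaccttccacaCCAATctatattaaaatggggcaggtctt
Only the Hmgcs1 window held TCACNCCAC, from base -137 relative to the RefSeq start, and 0 members held the longer form. These forms were found in 1.44% and 0.0999% of the 27025 genes with a window. CCAAT was present in 20 of the 23 members, against 41.1% of all genes and 43.1% of the 8314 genes averaging 5 or more on the log2 scale. It occurred 5 times in the Mvk sequence above and 1 time in that of Insig1, and Insig2, near 0 in fold change, held it 3 times. GGGCGG was present in 22 of 23 (38.2% of all genes, 70.3% of the expressed genes) and CACGTG in 5 of 23 (8.09% and 12.1%). A match describes letters in the window and not binding. Only exact matches were counted, so near matches to the sterol regulatory element, such as atcaccccat in the Srebf2 sequence above, were missed.

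Other genes of sterol and lipid metabolism gave a mixed picture, and 0 in any of the following lists passed in limma (1.12% of all tested genes). Of 6 further genes of cholesterol synthesis and uptake, 5 were negative (49.2% of all tested genes), with a median of -0.28. At an unadjusted p under 0.05, 4 were lower (9.65% of all tested genes). Aacs, which makes acetoacetyl-CoA from ketone bodies, read 9.17, 9.30 and 9.26 in untreated and 8.96, 8.90 and 8.89 in RvD1 libraries. These groups were well apart (log2 fold change -0.32, -0.47 to -0.18, limma adjusted p = 0.0537), and the value was also -0.32 without untreated replicate 3. Lpin1, a phosphatidate phosphatase, was on the other side at 0.08 (-0.20 to 0.36).

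Among 11 genes that process SREBPs or degrade proteins when sterol is high, the median was -0.02. At an unadjusted p under 0.05 there were 2 higher and 2 lower (10.3% and 9.65% of all tested genes). The ubiquitin ligase Syvn1 had -0.29 (-0.43 to -0.15, limma adjusted p = 0.0628) and the ligase Rnf139 had 0.16 (0.02 to 0.29, limma adjusted p = 0.185). Of 11 tested fatty acid targets of SREBP1, 8 were negative (49.2% of all tested genes), with a median of -0.06. By the unadjusted test 3 were lower (9.65% of all tested genes). The elongase Elovl1 read 10.76, 10.89 and 10.92 in untreated and 10.60, 10.59 and 10.58 in RvD1 libraries (-0.27, -0.40 to -0.14, limma adjusted p = 0.0640), while Elovl5 had 0.03 (-0.09 to 0.15). The 12 genes of the isoprenoid branch act in the supply of isoprenoid lipids, their attachment to proteins, or the making and use of dolichol and ubiquinone. Their median was -0.03, and 3 were higher and 1 was lower by the unadjusted test (10.3% and 9.65% of all tested genes). Pggt1b, a subunit of a protein prenyl transferase, had 0.31 (0.13 to 0.49, limma adjusted p = 0.0869), and Rabggta, which prenylates Rab proteins, had -0.24 (-0.43 to -0.05, limma adjusted p = 0.164).

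For 15 genes of cholesterol storage and transport the median was 0.03, with 8 positive and 7 negative (49.2% of all tested genes negative). By the unadjusted test 1 was higher and 0 were lower (10.3% and 9.65% of all tested genes). That gene was Abca1, a cholesterol exporter. It read 12.07, 12.48 and 12.31 in untreated and 12.58, 12.91 and 12.82 in RvD1 libraries, without overlap and opposite in sign to most members (log2 fold change 0.48, 0.22 to 0.75, limma adjusted p = 0.0801).

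Members differed little from other genes in length and base composition. Their longest transcripts had a median of 3116.5 bases and 50.1% GC, against 2759 bases and 49.7% over all tested genes. After a correction for both, the members' median was -0.20, 23 of 28 were negative (49.1% of all genes in that fit), 0 passed in limma (0.194%) and 9 were lower at an unadjusted p under 0.05 (6.84%). These 9 held 4 of the 7 found without the correction (Insig1, Sqle, Lss and Dhcr7), while Srebf2, Scap and Mvk were no longer among them and Hmgcs1, Idi1, Cyp51, Sc5d and Stard4 were. Single values shifted: Sc5d, at 42.9% GC, went from -0.15 to -0.30, and Stard4, at 43.9%, from -0.24 to -0.37. Scap, at 59.1%, went from -0.22 to -0.07 and Mvd, at 59.0%, from -0.29 to -0.11. Insig1, at 48.2%, was at -0.45 before and -0.48 after it, and Srebf2, at 57.9%, at -0.35 and -0.24.

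Levels per kilobase of the longest transcript spanned over 5 log2 units among the members. In untreated libraries Acly was highest at 9.33 ± 0.07 (log2 per kilobase, SD, n = 3). Fads1 (8.31 ± 0.11), Srebf2 (8.17 ± 0.22), Hmgcs1 (8.07 ± 0.19) and Tmem97 (8.05 ± 0.05) followed at a lower level, with neighbours among these 4 closer than their SDs or nearly so. Acss2 (4.03 ± 0.26), Fads2 (4.15 ± 0.17), Lss (4.89 ± 0.04) and Tm7sf2 (5.05 ± 0.30) were lowest. Insig1 stood at 7.77 ± 0.29 and Insig2 at 7.03 ± 0.07. In RvD1 libraries Acly was at 9.23 ± 0.03 and Fads1 at 8.20 ± 0.10. Tmem97 (7.98 ± 0.04), Hmgcs1 (7.93 ± 0.08) and Srebf2 (7.83 ± 0.15) followed, close to each other.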

How the data were processed

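The measurements are 1 deposited table of 38087 genes, whose 6 value columns carry the word normalized, per the file headers. The log2 scale of these deposited values was inferred, since none lay below 0 and the antilogs summed to a like total (12400000 to 12800000) in every library. The submitters' processing notes name TopHat2 2.0.7 and mm10, while counting and normalization software is not given in the sources used here. Poly-A libraries used 100 to 400 ng of RNA as input, per the labels' protocols.

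The log2 values were tested as deposited with limma 3.58.1 in R 4.3.3 (variance prior following the mean, two-sided, Benjamini-Hochberg over 18899 genes above 0 in at least 3 libraries, threshold 0.05), with 4 residual and 4.62 prior degrees of freedom, and the code was tested on simulated data. Alternatives were filters, scaling, variance prior, pseudocount, a replicate block, leaving out each library, and a correction with splines of 4 knots in log2 transcript length and GC content (GENCODE M21, mm10). The members and lists were chosen with earlier results of these data known, so no list was tested. Full values were given for members with an unadjusted p under 0.05, for Hmgcs1, Sqle, Idi1, Insig1, Insig2, Scap and Srebf2, and for the highest fold change; for others they were added where they showed a limit. Of each other list the smallest p in each direction was named, and 1 gene taken by that rule is not reported here. Protein sequences were not used here.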

Additional observations from a re-analysis of the deposited data

How the results depend on the processing

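The members' median log2 fold change was between -0.23 and -0.10 under all 16 alternatives, reaching -0.10 without untreated replicate 3 and -0.16 without RvD1 replicate 2. No member passed in limma in 14 of the 16 alternatives. Same-numbered libraries correlated at 0.301, -0.080 and 0.417 for numbers 1, 2 and 3 (deviations from group means, over genes). Differently numbered libraries correlated at -0.393 to 0.088. These values do not settle whether the numbers pair the samples. The labels state no pairing, so the block was kept as an alternative. With a replicate block, 1896 genes and 4 members passed (Sqle, Cyp51, Insig1 and Srebf2, all lower, limma adjusted p = 0.0134 to 0.0311, against 4.48% of all tested genes lower). With the replicate block and the length and GC correction, 755 genes and 7 members passed, all 7 lower (2.15% of tested genes lower). Over all genes 211 passed as reported. The count was 12 with no filter, 464 with the stricter filter (mean log2 value of at least 5), 1 without the trend, 36 after the length and GC correction, and 0 to 451 with 1 library left out, with 2623 to 4123 at an unadjusted p under 0.05. Of the calls, 50.2% were higher as reported and 38.0% after median centring. Of the 28 members, 22 kept their sign under every alternative. After the length and GC correction, with or without the block, Pmvk was at 0.11, Hsd17b7 at -0.07, Ebp at 0.02 and Tmem97 at 0.01. With 1 library left out, Pmvk ranged from -0.16 to 0.08, Msmo1 from -0.20 to 0.07, Insig2 from -0.06 to 0.06, Ebp from -0.06 to 0.02 and Hsd17b7 from -0.05 to 0.17. The cause of these shifts was not tested. In 7 members, Fads2 and Acss2 among them, some library held under 100 estimated reads, which limits their precision.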
